A study of Mus musculus with 7 samples.

Results

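The genes described here encode enzymes of the pentose phosphate pathway and the cytosolic and mitochondrial enzymes that reduce NADP. They were chosen by symbol for the known role of their products, with earlier results of these data known. All 10 genes of the rule were found among the 26607 listed genes. The 9 whose values are given are Pgls, Pgd, Rpia, Rpe, Tkt, Taldo1, Me1, Idh1 and Idh2, and counts of enzyme genes are over these 9. RNA was sequenced from C2C12 myotubes, which form when cells of this mouse myoblast line fuse in culture, and every library came from this 1 line grown without other organs or nerve. The control group held 3 libraries of untreated myotubes, with replicate numbers 1, 3 and 4, and the EPS group held 4 libraries of myotubes given electrical pulse stimulation, with replicate numbers 1 to 4. EPS makes cultured myotubes contract. By the study's methods the pulses lasted 1 ms at 1 Hz, began after 3 days of differentiation, ran for 24 h and were followed by 1 h of rest. The labels name no genetic change or other agent in either group.

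NADPH is the reduced carrier that cells spend on keeping glutathione and thioredoxin reduced and on building fatty acids and sterols. The oxidative branch of the pentose phosphate pathway makes it from a glucose phosphate in the cytosol, where PGLS opens a lactone and PGD releases carbon dioxide and yields ribulose 5-phosphate. The non-oxidative branch (RPIA, RPE, TKT, TALDO1) interconverts the sugar phosphates and joins them to glycolysis and nucleotide synthesis. Malic enzyme (ME1) and the NADP-linked isocitrate dehydrogenases, IDH1 in the cytosol and IDH2 in the mitochondrion, supply NADPH outside the pathway. In many tissues NFE2L2, the transcription factor of the antioxidant response, is known to act on several of these genes through a short DNA element.

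Levels are CPM, the reads of a gene scaled by the library's total. The libraries held 16616917 to 22120641 reads, and 3 reads, taken as the floor of detection, came to 0.136 to 0.181 CPM. Apart from Pgls, the enzyme genes had 169 to 12552 reads in each library. The fewest were those of Rpia, for which counting error was close to the spread between control libraries. Control replicate 4 stood apart: genes with 1 to 5 reads numbered 359 there and 2670 to 3181 elsewhere. Differences between groups were tested with limma on log2(CPM + 1) for 19144 genes, those with any reads. A call required an unadjusted P under 0.01 together with more than 2-fold change, and calls at a Benjamini-Hochberg adjusted p under 0.05 are given beside these. Each gene was also put through an exact two-sided permutation test over the 35 ways of dividing 7 libraries into 3 and 4, for which the smallest possible p is 0.0286. The labels do not say that libraries came from separate cultures, so the p-values measure the spread between these samples, which may be technical.

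Pgd and Me1 rose with EPS, each by somewhat more than 2-fold. Taldo1 was also higher in every EPS library than in any control library, without passing both thresholds, and Tkt was higher on average with overlapping groups. Rpia, Rpe, Idh1 and Idh2 overlapped between the groups, and Pgls was low in both groups. At P under 0.01 and 2-fold, 2 of the 9 enzyme genes were higher and 0 were lower, against 0.966% and 0.439% of all genes tested. None of the 9 passed an adjusted p under 0.05 in limma, which 0.141% of all genes did, while 4 were higher at an unadjusted P under 0.05, against 8.4% of all genes. When the recovered reads were tested with edgeR or DESeq2, 2 of the 9, Pgd and Me1, passed an adjusted p under 0.05. Of all 19144 genes, 1.51% did so in edgeR with TMM and 1.48% without TMM. In DESeq2 the share was 3.39% of the 14676 genes counted as tested there. Over all 18 alternatives the adjusted p ran from 0.0114 to 0.51 for Pgd and from 0.00183 to 0.51 for Me1. In 3 of the 9 the lowest EPS library was above the highest control library, which held for 7.76% of all genes. The median log2 difference was 0.16 over the 9 genes, with 8 of them above 0, and 0.04 over all genes tested. All 9 had a mean of at least 1 CPM, and the 12256 such genes had a median of 0.10. With only these 12256 genes fitted in limma, 310 passed P under 0.01 and 2-fold, in either direction. An adjusted p under 0.05 was reached by 121 of them. Both shares are larger than those over all 19144 genes, which stand beside the limma counts here and below.

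**Figure D1:**
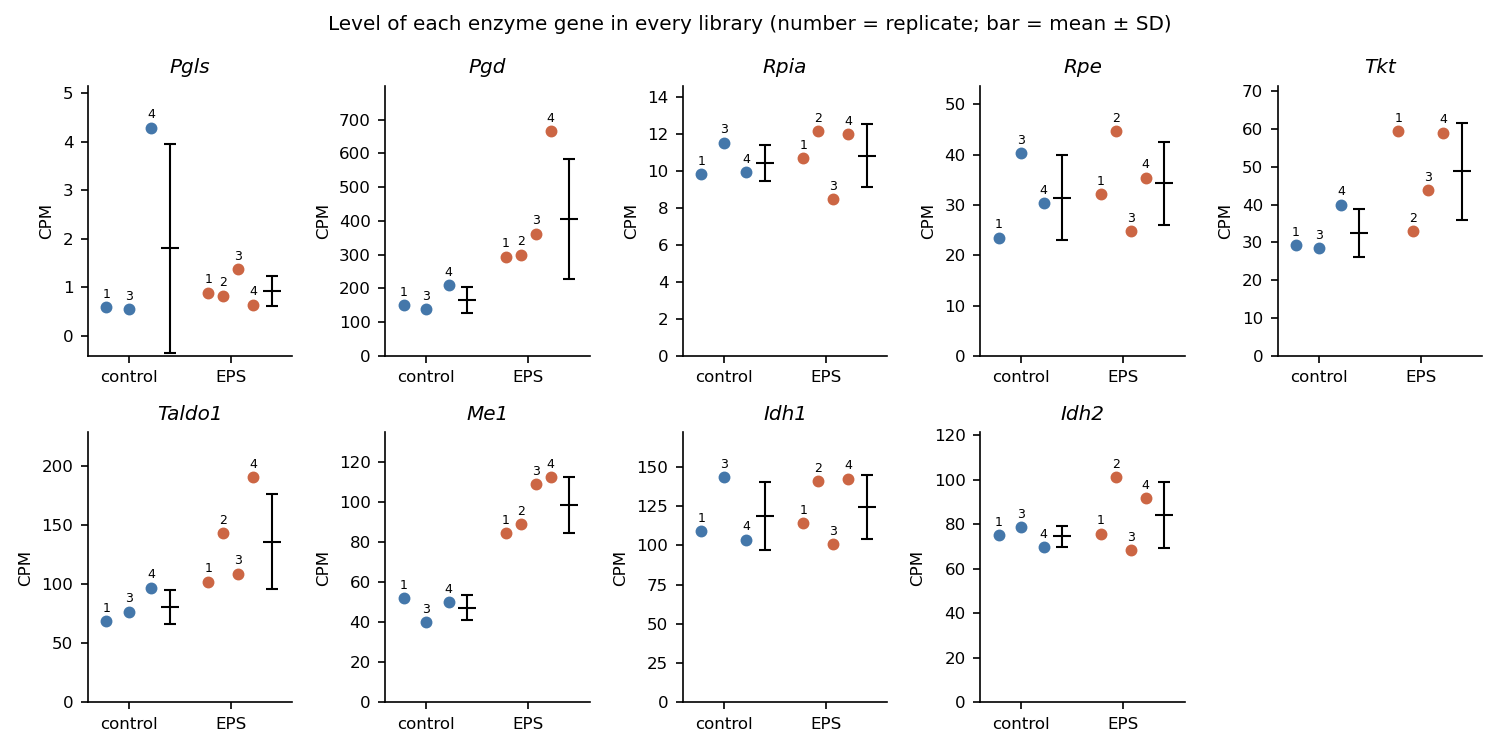
Level of each enzyme gene in CPM (vertical axis, linear) in the 3 control and 4 EPS libraries, with the replicate number above each point and the mean ± SD of the group beside it. The groups are apart for Pgd, Taldo1 and Me1, and control replicate 4 stands alone for Pgls, whose control SD is larger than its mean.

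The promoters of Pgd and Me1 are shown because these genes passed both thresholds. Each line is the sense strand from 100 bases before to 10 bases after the RefSeq transcript start, read 5′ to 3′ from the RefSeq sequence of GRCm38.p6. Capitals mark matches to TGACNNNGC, the core of the antioxidant response element, searched on both strands.
Pgd: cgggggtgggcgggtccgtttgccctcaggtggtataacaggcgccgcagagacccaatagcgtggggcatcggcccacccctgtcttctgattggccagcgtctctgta
Me1: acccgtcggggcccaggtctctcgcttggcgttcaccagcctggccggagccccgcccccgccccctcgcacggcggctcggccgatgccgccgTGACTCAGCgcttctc
The stretches lie at chr4:149166696-149166805 and chr9:86695905-86696014, both on the minus strand. In Me1 the match spans the start, from 6 bases before it to base 3 after it, and reads TGACTCAGC on the sense strand. The stretch of Pgd holds no match, but a second RefSeq start of this gene has TGACATTGC at bases 4 to 12.

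Windows of 300 bases, from 250 before to 50 after each RefSeq start, were searched in the same way for the 9 genes, which have 12 such windows. The motif was found in 2 of the 12, those of Me1 and the second start of Pgd, and in 12.4% of the 32851 windows of all genes. A match is a description of the letters in the window, and binding was not measured here.

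Pgls (ENSMUSG00000031807.10, GRCm38 chr8:71592176-71601092, plus strand) encodes the lactonase of the oxidative branch. Its level was 0.583, 0.542 and 4.29 CPM in control replicates 1, 3 and 4, and 0.884, 0.828, 1.37 and 0.637 CPM in EPS replicates 1 to 4. These rest on 10, 9 and 95 reads and on 19, 17, 30 and 12 reads. Control replicate 4 was 3.13-fold above the next highest library, and without it the other control libraries averaged 0.562 CPM, below every EPS library. The log2 difference was −0.30 over all libraries (SE 0.40, adjusted p = 0.813 in limma, exact permutation p = 0.8) and 0.29 without control replicate 4, so its direction was set by that library. In edgeR and DESeq2 on the reads of all libraries it was −0.97 to −1.08. Pgls overlaps Fam129c on the same strand, and how reads in the overlap were assigned is not given in the sources used here.

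Pgd (ENSMUSG00000028961.15, GRCm38 chr4:149149991-149166771, minus strand) encodes 6-phosphogluconate dehydrogenase, which reduces NADP while releasing carbon dioxide. Its level was 150, 139 and 210 CPM in the control libraries and 294, 300, 362 and 667 CPM in the EPS libraries. The groups did not overlap, control replicate 4 was the highest of its group, and EPS replicate 4 was far above the other EPS libraries. Pgd rose 2.44-fold, with a control mean of 166 ± 38.4 CPM (SD, n = 3), an EPS mean of 406 ± 177 CPM (SD, n = 4) and a log2 difference of 1.22 (SE 0.30, 95% interval 0.529 to 1.91). The unadjusted P in limma was 0.0032 and the adjusted p 0.164, and the exact permutation test gave its smallest value, p = 0.0286. Without EPS replicate 4 the log2 difference was 0.95, under the 2-fold threshold. Without control replicate 1 or 3 it was 1.15 or 1.10, past 2-fold but short of the P threshold.

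The branch point after PGD leads to ribose 5-phosphate through Rpia (ENSMUSG00000053604.5, GRCm38 chr6:70765720-70792232, minus strand) and to xylulose 5-phosphate through Rpe (ENSMUSG00000026005.15, GRCm38 chr1:66700831-66719805, plus strand). Rpia was at 9.85, 11.6 and 9.95 CPM in the control libraries and at 10.7, 12.2, 8.50 and 12.0 CPM in the EPS libraries. The control libraries lay within the range of the EPS libraries, with a log2 difference of 0.04 (95% interval −0.457 to 0.538, adjusted p = 0.947 in limma, exact permutation p = 0.8). Rpe was at 23.5, 40.3 and 30.3 CPM in the control libraries and at 32.2, 44.7, 24.8 and 35.4 CPM in the EPS libraries. Here the control libraries alone spanned most of the range of the EPS libraries. The log2 difference of Rpe was 0.13 (95% interval −0.429 to 0.681, adjusted p = 0.869 in limma, exact permutation p = 0.686). Neither interval reached a 2-fold change in either direction. Rpe overlaps Kansl1l on the opposite strand.

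Transketolase and transaldolase move carbon units between the sugar phosphates, and neither gene passed both thresholds. Tkt (ENSMUSG00000021957.7, GRCm38 chr14:30548359-30574720, plus strand) was at 29.3, 28.4 and 39.9 CPM in the control libraries and at 59.4, 33.0, 43.9 and 59.0 CPM in the EPS libraries. EPS replicate 2 was below control replicate 4, so the groups overlapped. The means were 32.5 ± 6.41 CPM (SD, n = 3) and 48.8 ± 12.8 CPM (SD, n = 4), a log2 difference of 0.55 (SE 0.24, P = 0.0468 and adjusted p = 0.421 in limma, exact permutation p = 0.114). Taldo1 (ENSMUSG00000025503.5, GRCm38 chr7:141392199-141402968, plus strand) was at 68.9, 76.8 and 97.2 CPM in the control libraries and at 102, 143, 109 and 190 CPM in the EPS libraries. The groups did not overlap, but EPS replicate 1 was only just above control replicate 4. The means were 81.0 ± 14.6 CPM (SD, n = 3) and 136 ± 40.3 CPM (SD, n = 4), a log2 difference of 0.71 (SE 0.23, 95% interval 0.181 to 1.25). Its P was 0.0144 and its adjusted p 0.277 in limma, and the exact permutation p was 0.0571.

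Me1 (ENSMUSG00000032418.15, GRCm38 chr9:86581371-86695953, minus strand) encodes cytosolic malic enzyme, which turns malate into pyruvate while reducing NADP. Its level was 52.1, 40.2 and 50.0 CPM in the control libraries and 84.6, 89.2, 109 and 112 CPM in the EPS libraries. The groups were well apart, and the EPS libraries were closer to each other than for Pgd, spanning 84.6 to 112 CPM. Me1 rose 2.08-fold, with a control mean of 47.4 ± 6.35 CPM (SD, n = 3), an EPS mean of 98.8 ± 14.0 CPM (SD, n = 4) and a log2 difference of 1.04 (SE 0.17, 95% interval 0.667 to 1.42). It had the lowest P of the 9 genes, 0.000153, with an adjusted p of 0.0692 in limma and an exact permutation p of 0.0286. The 2-fold threshold was close to its value: quantile normalization gave a log2 difference of 0.97 and median-of-ratios scaling one of 0.93, both under 2-fold. It was also under 2-fold in edgeR with TMM (0.96) and DESeq2 (0.95), and without control replicate 3 (0.93), EPS replicate 3 (0.99) or EPS replicate 4 (0.98). When the 12256 genes with a mean of at least 1 CPM were tested alone, 121 passed an adjusted p under 0.05 in limma. Me1 was the enzyme gene among them. Me1 overlaps A330041J22Rik on the opposite strand and Gm38230 on its own strand, and how reads in such overlaps were counted is not given in the sources used here.

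Idh1 (ENSMUSG00000025950.16, GRCm38 chr1:65158616-65186500, minus strand) and Idh2 (ENSMUSG00000030541.16, GRCm38 chr7:80094846-80115392, minus strand) encode the NADP-linked isocitrate dehydrogenases of cytosol and mitochondrion. Idh1 was at 109, 143 and 104 CPM in the control libraries and at 114, 141, 101 and 142 CPM in the EPS libraries. The highest library was a control library and the lowest an EPS library. Its log2 difference was 0.07 (95% interval −0.348 to 0.485, adjusted p = 0.894 in limma, exact permutation p = 0.771). Idh2 was at 75.3, 78.8 and 69.7 CPM in the control libraries and at 75.9, 101, 68.5 and 91.9 CPM in the EPS libraries. EPS replicates 2 and 4 were above all control libraries and the other EPS libraries were not. Its log2 difference was 0.16 (95% interval −0.216 to 0.537, adjusted p = 0.77 in limma, exact permutation p = 0.371). For both, the interval excluded a change as large as 2-fold. Idh2 overlaps Gm45203 on the same strand.

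**Figure D2:**
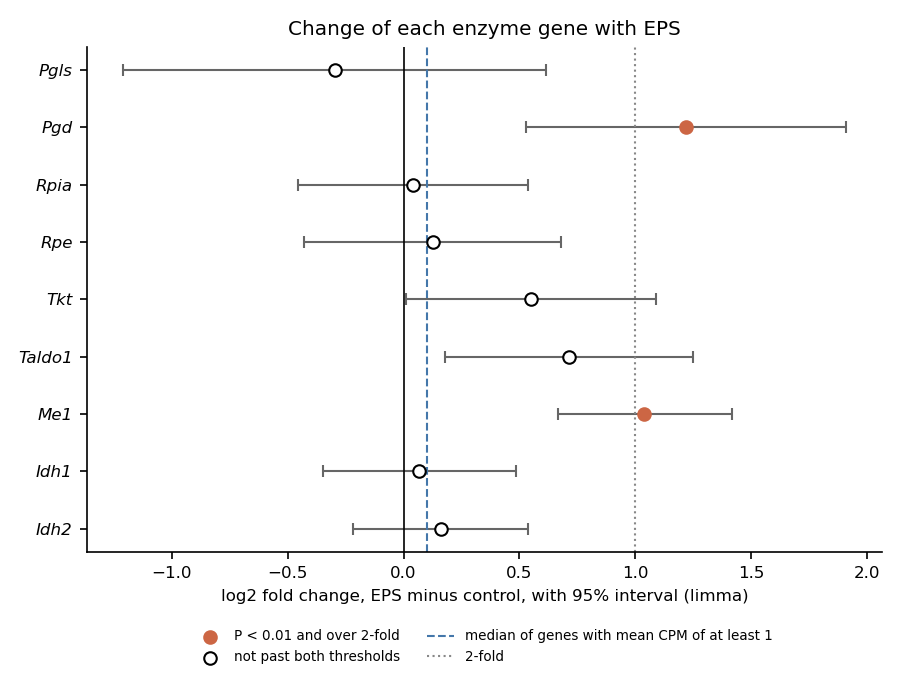
Log2 fold change of each enzyme gene, EPS minus control, on log2(CPM + 1), with the 95% interval of limma (3 control and 4 EPS libraries). Filled points passed P under 0.01 and 2-fold (Pgd and Me1), the dotted line marks 2-fold and the dashed line the median of 0.10 over the 12256 genes with a mean of at least 1 CPM.

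The deposited scaling placed most genes slightly higher with EPS. The median log2 difference of the 12256 genes with a mean of at least 1 CPM was 0.10 as deposited, and it was 0.0052 with quantile normalization and −0.0048 with median-of-ratios scaling. Relative to that shift Rpia and Idh1 lay below the median gene, and their sign turned under median-of-ratios scaling. Of all genes called at P under 0.01 and 2-fold, 185 were higher and 84 lower as deposited, 68.8% higher. With quantile normalization 130 were higher and 122 lower (51.6% higher), and with median-of-ratios scaling 134 and 120 (52.8% higher). The log2 difference of Pgd was 1.10 under median-of-ratios scaling and stayed past 2-fold. The genes in which the groups did not overlap, Pgd, Taldo1 and Me1, kept a positive difference under each of the 18 alternatives run. Tkt and Idh2, whose groups overlapped, did so too. Where groups do not overlap, leaving out libraries cannot turn the sign, so those alternatives do not test it.

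EPS replicate 4 was the highest EPS library for 4 of the 9 genes and EPS replicate 2 for 3. Among the control libraries, replicate 3 was the highest for 4 genes and replicate 4 for 4. EPS replicate 4 also stood apart in markers of other states. The summed level of 6 genes of dividing cells (Mki67, Top2a, Ccnb1, Cdk1, Birc5, Mcm2) was 223 to 316 CPM in the control libraries and 742, 354, 480 and 1021 CPM in EPS replicates 1 to 4. One of these 6, Birc5, which encodes survivin, passed both thresholds, at 13.3 ± 0.833 CPM in the control and 35.1 ± 19.8 CPM in the EPS group (SD, n = 3 and 4), and 5 of the 6 were higher at an unadjusted P under 0.05, against 0.966% and 8.4% of all genes. The summed level of 10 myotube genes, among them Myog, Ckm and Ttn, was 19150 to 23946 CPM in the control libraries and 12609 to 20273 CPM in the EPS libraries, lowest in EPS replicate 4. The median log2 difference of these 10 was −0.45, and 0 of them passed both thresholds in limma, against 0.439% of all genes lower. At an unadjusted P under 0.05, 1 of the 10 was lower, against 3.21% of all genes: Actn2, which encodes a sarcomeric actinin and is named after its value was seen, with a log2 difference of −0.99 and groups that did not overlap. Macrophage markers summed to 0.641 to 1.08 CPM in the control and 1.26 to 2.76 CPM in the EPS libraries, with Ptprc at or under 3 reads throughout and Emr1 at 0. The 3 endothelial markers summed to less than 0.904 CPM in every library but control replicate 4, where they reached that value, and the adipocyte and hepatocyte markers were at or under 3 reads. In RNA from whole cultures, a change in the mix of dividing cells and myotubes cannot be told apart from a change in RNA per cell, and the part of the dividing-cell genes in the differences of Pgd and Me1 was not tested.

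Levels were compared between genes after division by the length of each gene's exons in kilobases, in CPM per kb. In the control libraries Idh1 (42.8 ± 7.74 CPM per kb, SD, n = 3) and Taldo1 (37.3 ± 6.71) were highest, followed by Idh2 (28.8 ± 1.78) and Pgd (25.8 ± 5.95). The ranges of Idh1 and Taldo1 overlapped, as did those of Idh2 and Pgd, while the lowest value of Taldo1 was above the highest of Idh2. Me1 (12.3 ± 1.65) and Rpe (10.1 ± 2.72) followed, with ranges that overlapped each other. Tkt (4.42 ± 0.872), Rpia (1.95 ± 0.178) and Pgls (0.479 ± 0.572) came last, each below the range of the gene before it. The control mean of Pgls was raised by replicate 4. Its place also depends on how reads shared with Fam129c were assigned, which is not known. In the EPS libraries the order began with Pgd (62.9 ± 27.4, SD, n = 4) and Taldo1 (62.7 ± 18.6), then Idh1 (44.9 ± 7.35), Idh2 (32.6 ± 5.74) and Me1 (25.7 ± 3.63). Each of these overlapped the next, Rpe (11.0 ± 2.65) was below the range of Me1, and Tkt, Rpia and Pgls again closed the order. By its mean Pgd thus moved from the fourth place to the first, with a range that overlapped that of Taldo1. Per kb of exon it was below Taldo1 in EPS replicates 1 and 2 (45.6 and 46.5 against 47.1 and 65.9). It was above Taldo1 in EPS replicates 3 and 4 (56.2 and 103 against 50.2 and 87.7). The order depends on the length used: with the longest transcript the control order began with Taldo1 (59.4 CPM per kb), Idh1 (51.6), Pgd (45.7) and Idh2 (41.7), and the EPS order began with Pgd (111) and Taldo1 (100.0). With that length Tkt (10.1) overlapped Rpe (11.5) in the control libraries, and in the EPS libraries it stood before Rpe (15.1 and 12.6), again overlapping.

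Summed over genes, the per-length level of the non-oxidative branch (Rpia, Rpe, Tkt, Taldo1) was 53.7 ± 8.35 CPM per kb (SD, n = 3) in the control and 82.4 ± 20.4 CPM per kb (SD, n = 4) in the EPS group. Me1, Idh1 and Idh2 together came to 84.0 ± 7.83 and 103 ± 13.2 CPM per kb. Pgd and Pgls, nearly all of it Pgd, came to 26.3 ± 6.52 and 63.2 ± 27.4 CPM per kb. These sums follow from the levels of single genes above and were not tested.

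**Figure D3:**
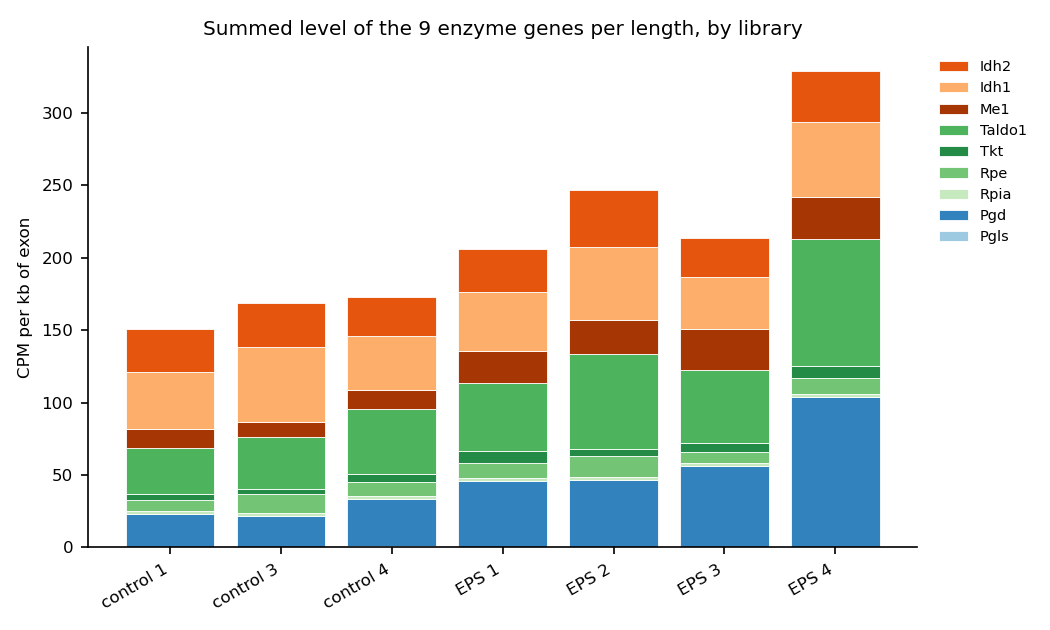
Summed level of the 9 enzyme genes in CPM per kb of exon (vertical axis, from 0) in each library, stacked by gene, with Pgls and Pgd in blue, the non-oxidative branch in green and the other NADPH enzymes in orange and brown. The stacks reach 151 to 173 in the control libraries and 206 to 329 in the EPS libraries, and the blue part, nearly all Pgd, is larger in each EPS library than in any control library.

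Idh1 and Idh2 act in different compartments, and Me2 encodes a mitochondrial relative of Me1, so the difference between relatives within each library was compared between the groups for these 2 pairs. Me2, a mitochondrial malic enzyme that mainly reduces NAD, was at 45.2 ± 8.49 CPM (SD, n = 3) and 62.5 ± 10.8 CPM (SD, n = 4), a log2 difference of 0.46 (adjusted p = 0.392 in limma). The log2 difference of Me1 exceeded that of Me2 by 0.58 (exact permutation p = 0.114, 0.229 adjusted over 2 pairs). With single libraries left out this value ran from 0.33 (control replicate 3) to 0.73 (control replicate 4). Idh1 and Idh2 differed in response by −0.09 (exact permutation p = 0.486, 0.486 adjusted). That difference was −0.15 without control replicate 1 and 0.0098, of the other sign, without control replicate 3. No pair was shown to respond differently, and with 7 libraries differences of this size could not be separated from the spread.

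Several genes of the antioxidant response rose with EPS. Like the other lists, this list was chosen with earlier results of these data known. Its counts describe the data and are not independent support. Of 12 antioxidant response genes, 6 passed P under 0.01 and 2-fold, all higher, against 0.966% of all genes, 2 passed an adjusted p under 0.05 in limma, against 0.141%, and their median log2 difference was 1.00. Nqo1, a quinone reductase that uses NADPH, was at 4.43, 5.60 and 5.92 CPM in the control libraries and at 45.3, 164, 120 and 455 CPM in the EPS libraries, a log2 difference of 4.51 (adjusted p = 0.045 in limma). Hmox1, the heme oxygenase, was at 39.1, 49.3 and 35.1 CPM and at 144, 386, 218 and 447 CPM, a log2 difference of 2.71 (adjusted p = 0.0443 in limma). For both, EPS replicate 4 was the highest library and EPS replicate 1 the lowest of the EPS group. The adjusted calls were close to their threshold: with any single library other than EPS replicate 1 left out both were lost, with adjusted p up to 0.135 for Nqo1 and 0.122 for Hmox1 in limma, and both were lost with quantile normalization (0.0532 and 0.0501) and with the replicate number as a block (0.51). Both passed P under 0.01 and 2-fold in all 18 alternatives. Gclm, the modifier subunit of the enzyme that starts glutathione synthesis, had a log2 difference of 1.93, and Srxn1, which restores overoxidized peroxiredoxins, had one of 1.55. Summed over the 12 genes, the level was 576, 672 and 533 CPM in the control libraries and 1020, 1695, 1241 and 2519 CPM in the EPS libraries. Nfe2l2 and Keap1, the factor and its inhibitor, are members of this list and did not pass both thresholds.

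**Figure D4:**
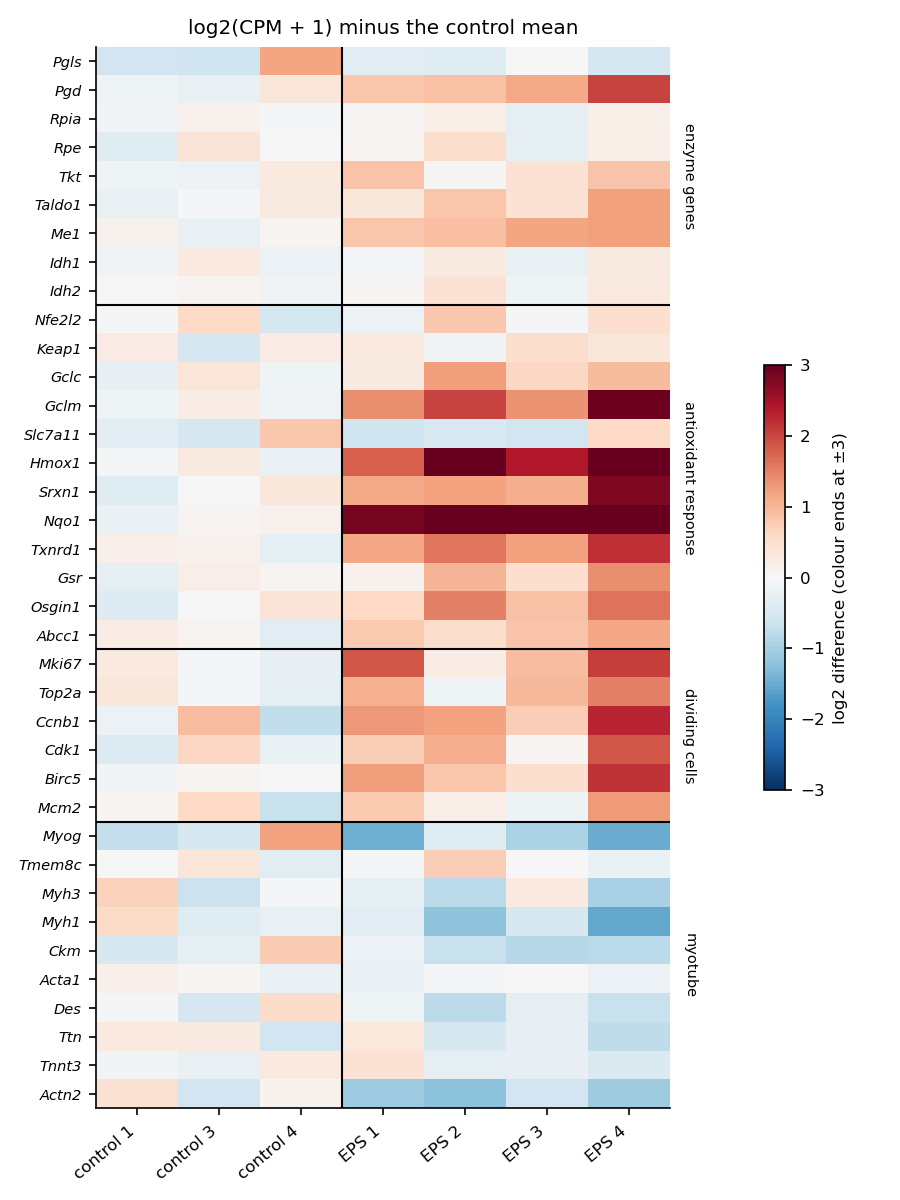
Difference of log2(CPM + 1) from the control mean of each gene (colour, with values beyond the ends of the scale drawn at its ends) in the 7 libraries, for the 9 enzyme genes, 12 antioxidant response genes, 6 genes of dividing cells and 10 myotube genes. EPS replicate 4 has the deepest red for Pgd, Gclm and Srxn1 and high values for the genes of dividing cells.

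Of 19 enzymes that spend NADPH, 4 passed P under 0.01 and 2-fold, all higher, against 0.966% of all genes, and the median log2 difference of the 19 was 0.38. Besides Nqo1 these were Txnrd1, Blvrb and Cbr3, and Nqo1 and Txnrd1 are also among the 6 antioxidant response genes counted above. The list of NADPH users was likewise chosen with earlier results of these data known. Txnrd1, the cytosolic thioredoxin reductase, was at 143, 141 and 108 CPM in the control libraries and at 291, 396, 307 and 591 CPM in the EPS libraries, a log2 difference of 1.55 (adjusted p = 0.0712 in limma). The groups did not overlap, and EPS replicate 4 was again the highest. Blvrb, a biliverdin and flavin reductase, had a log2 difference of 1.67 and Cbr3, a carbonyl reductase, one of 1.23. At an unadjusted P under 0.05, 8 of the 19 were higher and 3 lower, against 8.4% and 3.21% of all genes. The lowest log2 difference, named after its value was seen, was that of Sqle, the squalene epoxidase of sterol synthesis, at 240 ± 24.6 CPM in the control and 123 ± 17.6 CPM in the EPS group (SD, n = 3 and 4), with a log2 difference of −0.97 that was just under 2-fold.

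Other genes of the pathway and other sources of NADPH passed both thresholds in 0 cases in limma, against 0.966% higher and 0.439% lower over all genes. Of 11 other pentose phosphate genes, 10 were above 0 and tested, with a median log2 difference of 0.27, 2 of them higher at an unadjusted P under 0.05 and 0 lower (8.4% and 3.21% of all genes). These were Rbks, the ribokinase, at 1.06 ± 0.356 CPM (SD, n = 3) and 2.69 ± 0.614 CPM (SD, n = 4), and Pgm2, a sugar phosphate mutase, at 90.2 ± 11.0 CPM and 161 ± 26.2 CPM, both named after their values were seen. The symbols Pgm1 and Pgm2 changed places between annotations, so which of these mutases the value belongs to is uncertain. In both the groups did not overlap, with log2 differences of 0.84 and 0.83 on the log2(CPM + 1) scale, which understates the change of a gene as low as Rbks. Of 9 other NADPH sources and NAD kinases, 1 was higher and 1 lower at an unadjusted P under 0.05, against 8.4% and 3.21% of all genes, with a median log2 difference of −0.03. The higher was Me2, given above. The lower, also named after its value was seen, was Mthfd2 of mitochondrial folate metabolism, at 87.8 ± 17.2 CPM (SD, n = 3) and 55.2 ± 8.86 CPM (SD, n = 4), with groups that did not overlap.

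The NAD-linked isocitrate dehydrogenase subunits and the citrate-handling enzymes, which share substrates with IDH1 and IDH2, had a median log2 difference of 0.08. None of these 10 genes passed both thresholds in limma, and 1 was higher at an unadjusted P under 0.05, near the 8.4% of all genes. The 9 glycolytic enzymes that share sugar phosphates with the pathway had a median of 0.21, and 0 of them passed both thresholds, with 1 higher and 1 lower at an unadjusted P under 0.05 (8.4% and 3.21% of all genes).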

How the data were processed

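Directional libraries of poly(A) RNA were sequenced from both ends (100 bp). Per the submitters' processing notes, mapping was to GRCm38 by STAR 2.5.4b. For every library the authors deposited the CPM of each gene, without a log or quantile step. The read counter, its annotation and its use of strand are not given in the sources used here. All values (100% in each library) came out as whole reads within a tolerance of 0.02 reads, and these reads were used for the count tests. The floor of 3 reads covers counting error only, since PCR copies are not independent molecules.

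Groups and replicate numbers were taken from the sample labels. The 4 EPS libraries were compared with the 3 control libraries, without covariates, on log2(CPM + 1) with limma 3.58.1 in R 4.3.3 (empirical Bayes with a mean-variance trend). Single genes and the 2 pairs were put through exact two-sided permutation tests. As alternatives, the pseudocount was set to 0.1 or 0.5, only genes with a mean of at least 1 CPM were kept, and the following were run: quantile and median-of-ratios scaling, robust empirical Bayes, edgeR 4.0.16 (quasi-likelihood) with and without TMM and DESeq2 1.42.0 on recovered reads, the replicate number as a block, leaving out each library, and, chosen after seeing the data, leaving out control replicate 4 and EPS replicate 4 together. The limma fit without covariates was tested on simulated reads. The enzyme genes and the gene lists were chosen with earlier results of these data known. The rule for names took the enzyme genes, the genes of the pairs and, from each list, at most 4 genes past both thresholds with the largest change. Exceptions are stated where they occur, and 1 gene of the rule is not reported here. Gene coordinates and lengths are those of GENCODE on GRCm38, and promoters are those of RefSeq on GRCm38.p6. Older symbols were matched through RefSeq synonyms.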

Additional observations from a re-analysis of the deposited data

How the results depend on the processing

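Of the genes tested, 269 passed P under 0.01 and 2-fold and 27 passed an adjusted p under 0.05. The first count was 601 with a pseudocount of 0.1, 629 and 631 in edgeR with and without TMM, and 585 in DESeq2. The second was 106 with a pseudocount of 0.1, 121 with a minimum mean of 1 CPM, 17 after quantile normalization, 290 and 283 in edgeR with and without TMM, 497 in DESeq2, and between 0 (without EPS replicate 3, when 2224 genes had an unadjusted P under 0.05) and 27 when libraries were left out, with 3 when both replicates 4 were. The deviations of libraries with the same replicate number correlated at r = 0.245, −0.447 and 0.0679 for numbers 1, 3 and 4, so the numbers were not taken as pairs. With the replicate number as a block, in which EPS replicate 2 has no partner, 161 genes passed both thresholds of P and fold, while 0 had an adjusted p under 0.05 (1628 had an unadjusted P under 0.05).

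The enzyme genes past both thresholds numbered 1 rather than 2 after quantile normalization and median-of-ratios scaling, in edgeR with TMM and in DESeq2, and 0 to 2 when libraries were left out (0 without control replicate 3 and without EPS replicate 4). At an adjusted p under 0.05 they numbered 1 with a pseudocount of 0.1 and with a minimum mean of 1 CPM, 2 in edgeR with and without TMM, and 2 in DESeq2. The log2 difference of Me1 was 0.97 after quantile normalization, 0.93 with median-of-ratios scaling, 0.96 in edgeR with TMM, 0.95 in DESeq2 and 0.93 to 1.11 with libraries left out. Pgd ranged from 0.95 to 1.40 with libraries left out. Values that changed sign were those of Rpia (−0.11 after quantile normalization, −0.064 with median-of-ratios scaling and in DESeq2, −0.051 in edgeR with TMM, −0.015 with the block, −0.040 to 0.14 with libraries left out), Rpe (−0.0084 with the block, −0.059 to 0.32 with libraries left out) and Idh1 (−0.044, −0.034 and −0.046 with median-of-ratios scaling, edgeR with TMM and DESeq2, −0.090 to 0.21 with libraries left out). Pgls also changed sign, to 0.29 without control replicate 4 and 0.37 without both replicates 4, ranged from −0.60 to 0.37 with libraries left out, and was −1.08 in edgeR with TMM and in DESeq2 and −0.97 in edgeR without TMM. Idh2 kept its sign but ran from 0.049 with median-of-ratios scaling to 0.25 without EPS replicate 3. The cause of these changes was not tested.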
